A study of Mus musculus with 9 samples.

Results

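Regulatory T (Treg) cells that had lost CBP were compared with control Treg cells across 12393 genes, to find which transcripts differ when this acetyltransferase is deleted. The comparison used 6 of the 9 arrays of the series, the 3 named for CBP and the 3 named for the wild type, and every non-control probe set with a single gene symbol. A gene with several probe sets was represented by its brightest, judged on all 9 arrays together. The table held 22626 non-control probe sets, of which 20380 carried 1 symbol, 691 carried several and 1555 carried none.

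The CBP-deleted mice are labelled fl-CBP/Foxp3cre, a floxed CBP gene cut by a Cre recombinase that is driven by Foxp3. The control mice are labelled Foxp3cre control, and the series text also calls them wild type. No genotyping is given, and if these mice lacked the Cre allele, its effect and that of the deletion cannot be told apart. The 3 arrays of another group, fl-p300/Foxp3cre, entered the estimate of the spread and are given beside some values. All mice were on the C57Bl/6 background, and each group had 3 samples that the labels call independent. CD4+CD25+ cells were taken by magnetic separation and 100 ng of total RNA was labelled, so the population is defined by CD25, encoded by Il2ra, and not by Foxp3. The labels give no age, no sex, no number of animals per sample and no measured share of cells that had lost CBP.

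CBP, encoded by Crebbp, transfers acetyl groups to histones and to other proteins, among them transcription factors such as Foxp3. It is brought to enhancers and promoters by factors that bind it directly, classically the phosphorylated form of CREB, which recognises the cyclic AMP response element, and also AP-1, NF-kappaB, STAT and nuclear receptor proteins. Its close relative p300 has a similar structure and shares many of these partners. In Treg cells Foxp3 sets the lineage, and acetylation is known to affect the stability of the Foxp3 protein.

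The levels are log2 values as deposited, and a difference of 1 is a doubling. Foxp3 was examined first because it goes against the cell label. It read 2.73, 2.91 and 2.97 in the CBP-deleted arrays and 9.75, 9.58 and 9.48 in the controls, and 2.95 on average in the p300-deleted arrays. The CBP-deleted readings lay below those of Xist, a transcript of female cells that stood at 3.44 to 3.80 on all 9 arrays beside a Y-linked transcript at 8.18 or more, and that range is used here as background. Which stretch of the mRNA its only probe set reads is not in the labels, and whether the cells lacked the Foxp3 transcript was not tested. Of other Treg markers, Il2ra and Tnfrsf18 were present, Ctla4 was higher and is given further on, and Ikzf2 is not shown. Il2ra read 9.17, 9.18 and 8.93 against 9.16, 8.77 and 9.22, groups that overlapped (adjusted p = 0.879 in limma). Cells were taken by CD25, the product of Il2ra, so this level does not check their identity. Tnfrsf18, a TNF receptor of Treg cells, averaged 10.95 against 11.31 and did not pass (adjusted p = 0.0789). Crebbp itself read 7.35, 7.11 and 7.13 against 7.56, 7.67 and 7.36, a difference of -0.33 (SE 0.11, adjusted p = 0.123). The 3 CBP-deleted values lay under the 3 controls by a small margin, and a probe set outside the deleted exons, which the labels do not name, would not check the deletion. The p300 gene is not analysed here.

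Markers of other cells differed between the groups and are given before the results. The linear levels of 15 neutrophil markers summed to log2 9.52, 9.45 and 12.15 in the CBP-deleted arrays and 8.88, 8.29 and 8.99 in the controls. All 3 CBP-deleted arrays lay above all 3 controls, and replicate 3 stood apart from the other two, yet only Stfa3, a cysteine protease inhibitor, passed the test (1.53, adjusted p = 0.0144). S100a8, an abundant neutrophil protein, read 7.64, 7.64 and 11.01 against 6.98, 4.92 and 6.99. The 13 B cell markers went the other way, at 9.574 to 10.002 against 10.47 to 10.70, and 5 of them fell. Those were Cd72, Cd79a, Spib, Cd79b and Cd22, while the B cell factors Pax5 and Ebf1 and the receptors Fcer2a and Cr2 were at background on all 6 arrays. CD8 T cell markers summed to 10.96 to 11.26 against 11.37 to 11.74, although 5 of the 6 had a positive difference (median 0.05). NK cell markers overlapped at 10.62 to 11.43 against 11.36 to 11.52. Within the CD8 list Gzmk, a granzyme, and Cd8b1 rose. The chemokine Ccl5, which makes up most of the CD8 sum, fell, at 10.52 to 10.87 against 11.10 to 11.56. Macrophage and dendritic cell markers overlapped (9.27 to 10.91 against 8.97 to 10.21), with Itgam, Fcgr1 and Xcr1 at background. Platelet markers did not overlap, at 7.51 to 7.60 against 7.63 to 8.04, with 7 of 7 negative, 2 at an unadjusted p under 0.05, 0 past the threshold in limma and Gp5 at background. Among 9 erythroid markers Alas2, an enzyme of heme synthesis, and the globin gene Hbb-b2 fell by 1.10 and 0.73. Hba-a1, another globin gene, and Epb42 were at background on all 6 arrays, and the erythroid sums overlapped (7.81 to 8.04 against 7.77 to 8.33). All marker sums leave out probe sets with several gene symbols or none. A transcript read only by such probe sets is not in them, so overlapping sums do not show equal content. The sums of plasma cell, MHC class II, mast cell, stroma and thymocyte markers overlapped too. The plasma cell list holds no immunoglobulin heavy or light chain gene. The probe sets of Igha, a heavy chain gene, were higher by 1.15, 1.18 and 1.28. The brightest probe set of Ighm, another heavy chain gene, was at -0.25 and the next brightest at -0.40. The dimmer probe sets of Ighm were all positive, up to 2.40. With every probe set tested on its own, that highest one did not pass (adjusted p = 0.0918 in limma). Another of the dimmer ones did (adjusted p = 0.0372), as did the probe set at -0.40 (adjusted p = 0.038). The sign of Ighm as a gene that fell thus rests on its brightest probe sets. The sums of the 6 defining markers of CD4 T cells overlapped, at 13.88 to 13.95 against 13.76 to 13.98, although 1 of the 6, Cd5, fell (-0.32). In bulk samples fewer cells of a type and less RNA per cell cannot be told apart, and the part of these other cells in the results was not tested. RNA measures were uneven among the controls as well. The 18S ribosomal RNA probe sets read 5.82, 6.20 and 8.88 in the controls and 7.39, 7.999 and 7.85 in the CBP-deleted arrays, and the 3' minus 5' level of Gapdh was -0.15 to 0.11 in CBP-deleted and 0.20 to 0.60 in control arrays.

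**Figure D1:**
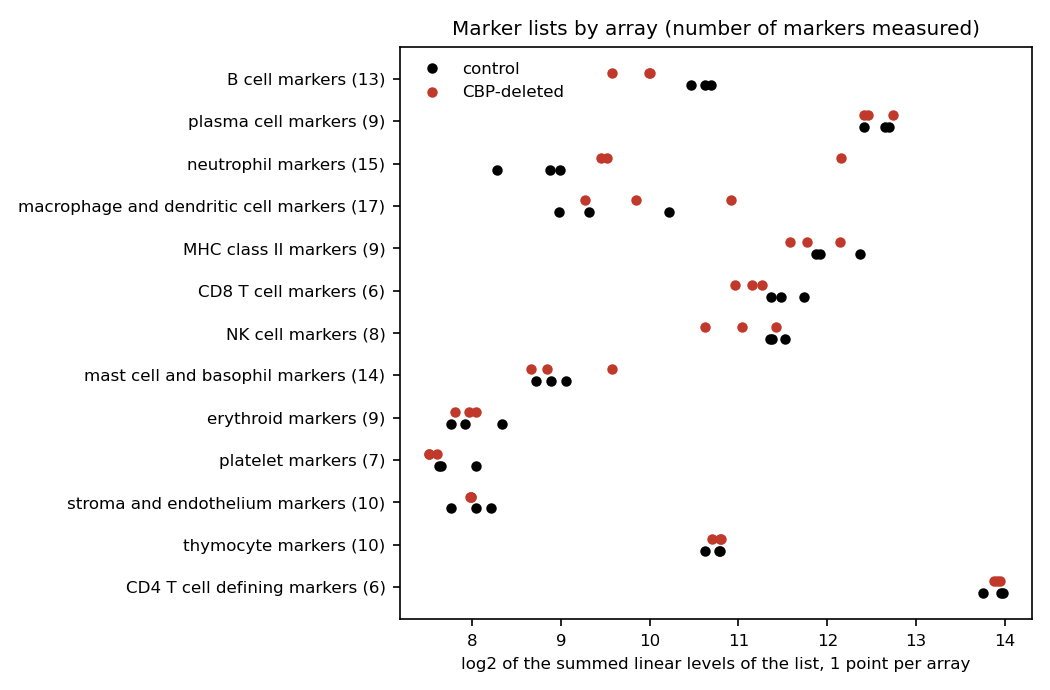
The summed level of each marker list is plotted on a log2 axis, 1 point per array, black for the 3 controls and red for the 3 CBP-deleted arrays, with the number of markers measured after each name. The neutrophil points of the CBP-deleted arrays lie right of the controls, with replicate 3 at 12.15, and the B cell points lie left, at 9.574 to 10.002 against 10.47 to 10.70.

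Across the 12393 genes, 611 changed at an adjusted p under 0.05 in limma, 265 higher and 346 lower in CBP-deleted cells. That is 4.93% of the genes tested, 2.14% higher and 2.79% lower. These shares, which are not matched to the level of the members, are the background for every list that follows. The changes were mostly small. The median rise was 0.55 and the median fall -0.55 on the log2 scale, 357 of the changed genes moved less than 1.5-fold, and only 17 rose and 27 fell at least 2-fold. Over all genes the median was -0.03, and the central range, from the 5th to the 95th percentile, ran from -0.39 to 0.38. The 3 CBP-deleted arrays lay entirely on one side of the 3 controls for 3030 genes, or 24.4%. The share called followed the level: it was 0.444% in the dimmest quintile of the genes, 1.98%, 6.45% and 7.10% in the next 3, and 8.67% in the brightest. For 32 changed genes the lower group was at background. In 16 of them the higher group was not, and the fold is a lower bound, while in the other 16 both groups were and no fold is read. A positive difference was found for 43.4% of all genes and a negative one for 56.6%, and 20.4% reached an unadjusted p under 0.05; counts of signs and of unadjusted p in the lists are read against these shares.

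The counts depend on single arrays. Without CBP-deleted replicate 1, 2 or 3 the total was 123, 91 or 85 genes and without control replicate 1 it was 130, whereas without control replicate 2 or 3 it was 893 or 1131. All 36 lists with at least 3 calls, cell markers left out, had fewer calls without CBP-deleted replicate 1, 2 or 3 or control replicate 1, and 13, 14, 15 and 11 of them had 0 in limma. With the S100a8 and S100a9 level as a covariate it was 54, and with the 18S level 364.

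**Figure D2:**
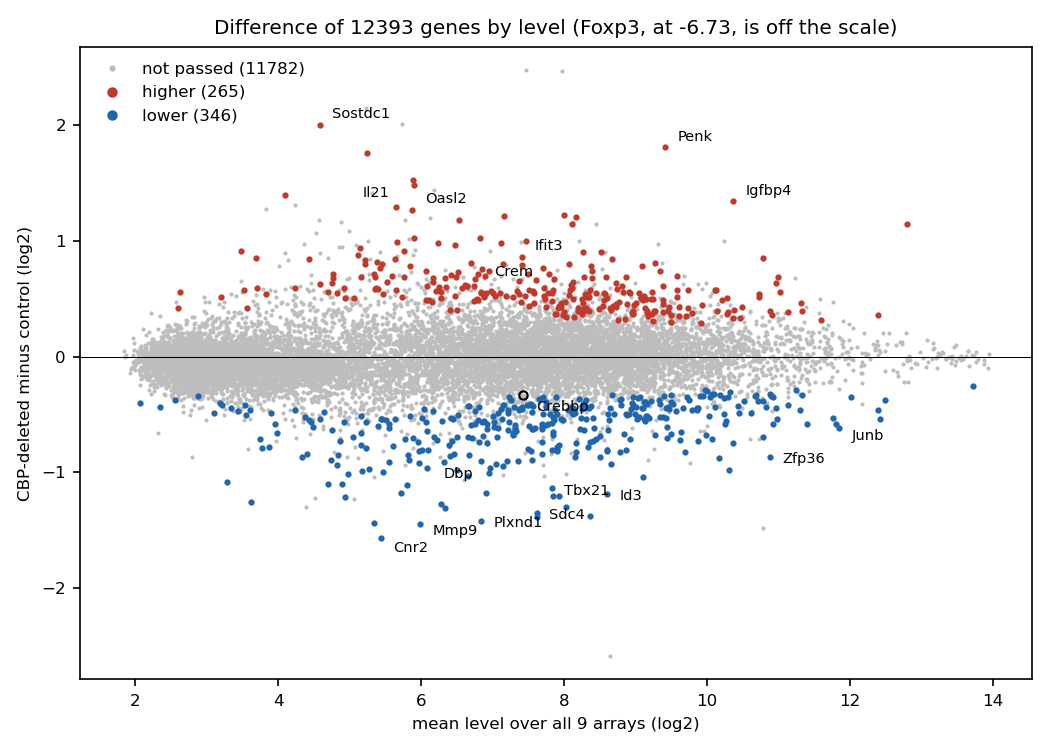
Each point is 1 of the 12393 genes, with its mean level over all 9 arrays (log2) on the horizontal axis and CBP-deleted minus control (log2) on the vertical axis; red genes rose, blue genes fell, grey genes did not pass, and the open circle is Crebbp. Penk and Igfbp4 stand out among bright genes that rose, Cnr2, Mmp9, Plxnd1 and Sdc4 among those that fell, and Foxp3 at -6.73 is off the scale.

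**Figure D3:**
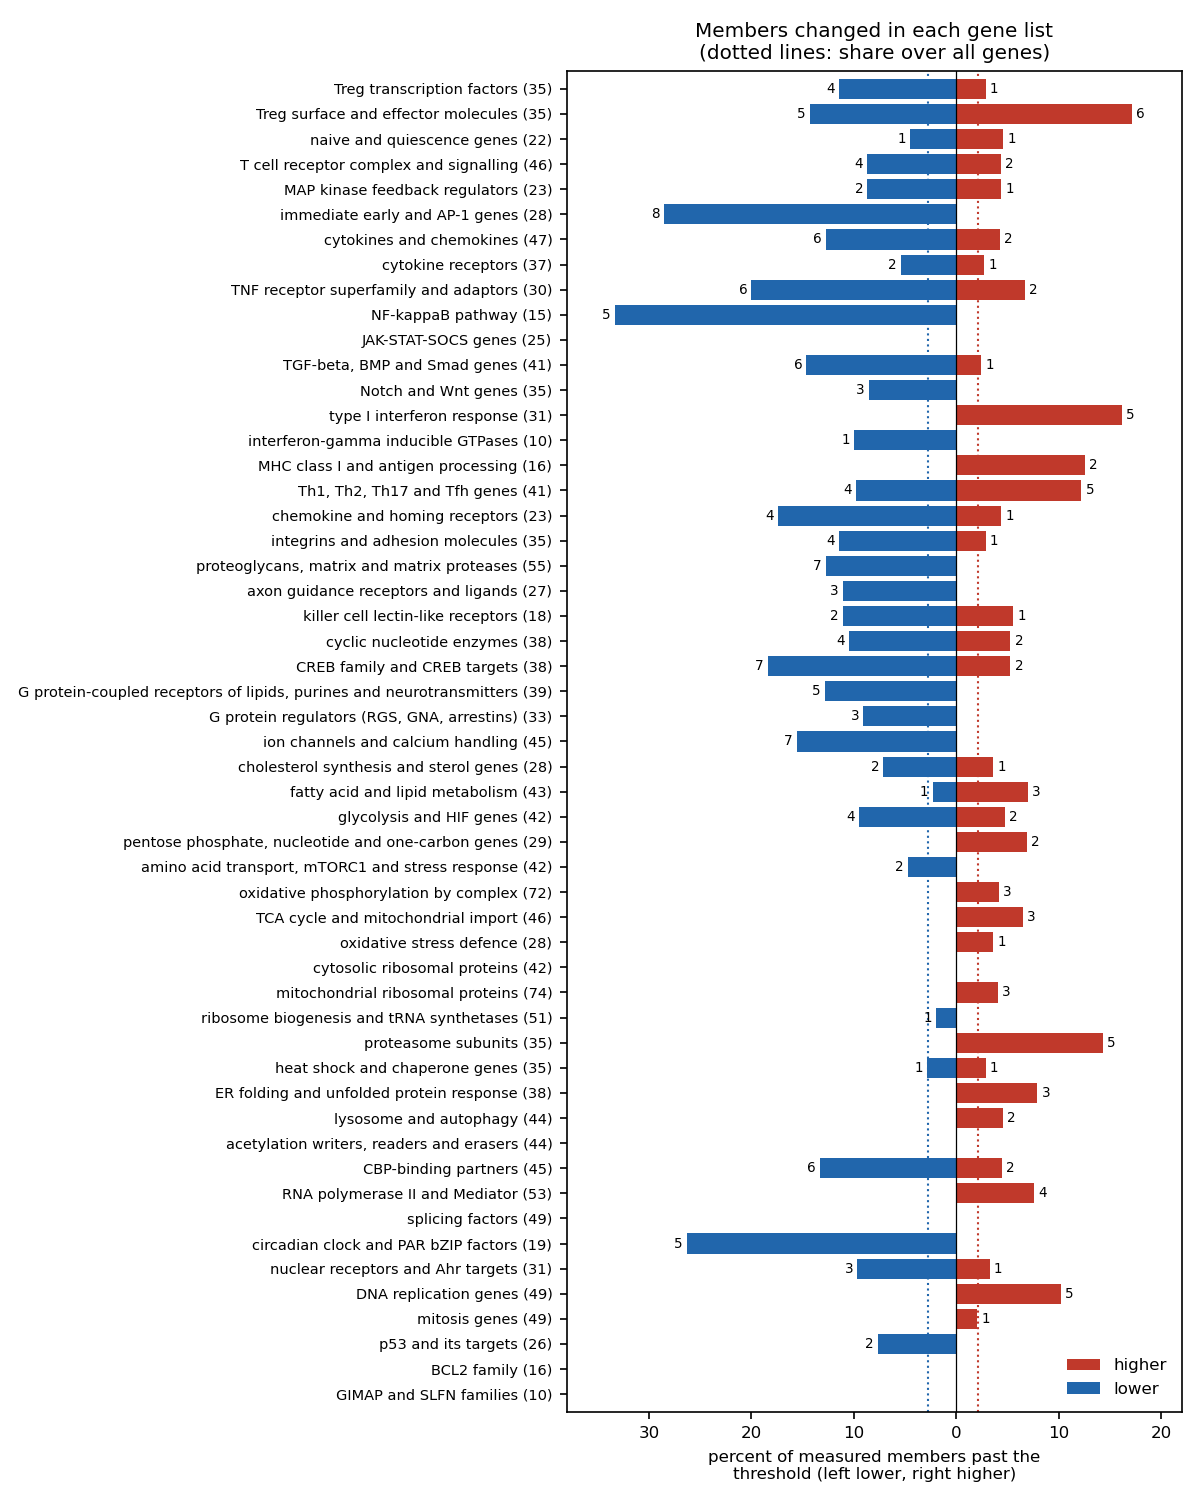
For each gene list other than the cell type markers and 1 list not reported here, with its number of measured members in brackets, bars give the percent of members that fell (blue, left) and rose (red, right), with the counts at the bar ends and dotted lines at 2.79% and 2.14%, the shares over all genes. The NF-kappaB pathway (5 of 15), the immediate early genes (8 of 28) and the clock genes (5 of 19) have the longest blue bars, and the type I interferon response (5 of 31) and the proteasome (5 of 35) have red bars only.

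Immediate early genes, which cells switch on within minutes of a stimulus without new protein synthesis, were lower. Of 28 measured members 8 fell and 0 rose, 23 had a negative sign, and the list median was -0.31 against -0.03 over all genes. Zfp36, whose product binds and destabilises cytokine mRNAs, read 10.56, 10.21 and 10.12 in CBP-deleted cells and 11.35, 11.004 and 11.13 in controls, a fall of 0.87 on the log2 scale (SE 0.12, adjusted p = 0.00351). Junb, a subunit of the AP-1 factor, read 11.56, 11.40 and 11.13 against 12.04, 11.96 and 11.93, a fall of 0.61 (SE 0.11, adjusted p = 0.016). Jund, its relative, read 11.57, 11.46 and 11.35 against 12.10, 12.09 and 11.93 and fell by 0.58 (SE 0.08, adjusted p = 0.00286). In all these genes the 3 CBP-deleted arrays lay under the 3 controls. Ier5, an early response gene, was the most even, at 9.96, 9.94 and 9.89 against 10.64, 10.70 and 10.69. The zinc finger factors Klf4 and Klf10 fell by 0.81 and 0.75, Ier2 by 0.49 and Fos, the partner of the Jun proteins, by 0.38. Members that did not pass were also mostly below the controls: Fosb at -0.89 (adjusted p = 0.174), Nr4a1 at -0.43 (adjusted p = 0.209) and Egr1 at -0.33 (adjusted p = 0.222). Jun itself was level, at 11.45 against 11.38. Against p300-deleted cells, tested in the same fit, Klf4 was lower by 1.11 (adjusted p = 0.00665), Zfp36 by 0.90 (adjusted p = 0.00205), Junb by 0.83 (adjusted p = 0.00268) and Fos by 0.67 (adjusted p = 0.00273). Over all genes 5.2% differed between these groups, which share the CBP-deleted arrays with the comparison against controls. The list median for p300-deleted against control cells was 0.06. Without 1 of the CBP-deleted arrays or control replicate 1, between 3 and 6 members passed, all lower.

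Genes that regulate MAP kinase signals, some of them of the same early type, were listed apart. Of 23 measured, Dusp1 and Gadd45g fell and Dusp14 rose, with a list median of -0.25. Dusp1, a phosphatase that inactivates MAP kinases, read 11.999, 12.03 and 11.92 against 12.64, 12.45 and 12.49, with no overlap (-0.54, SE 0.10, adjusted p = 0.0125). It was also lower than in p300-deleted cells, by 0.78 (adjusted p = 0.00169).

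CREB is the factor CBP is named after, and its family and targets moved in both directions. Of 38 measured members 7 fell and 2 rose, 29 were negative and the median was -0.13. Of the 14 CREB family members and coactivators, Crem rose and Crtc3 fell, while Creb1 itself was level (6.34 against 6.40). Crem, which codes for activating and repressing CREB relatives, read 7.30, 6.88 and 7.38 against 6.46, 6.58 and 6.26 (0.75, SE 0.19, adjusted p = 0.0447). Crtc3, a coactivator that binds CREB, read 7.03, 7.33 and 6.90 against 7.66, 8.03 and 7.51 (-0.65, adjusted p = 0.0477). Of the 24 targets, 6 fell: Id3, Gem, Junb, Dusp1, Per2 and Fos. The target that rose, Penk, which codes for the precursor of enkephalin peptides, moved the furthest, at 10.17, 10.03 and 10.42 against 8.28, 8.54 and 8.36 (1.81, SE 0.14, adjusted p = 0.000143). Gem, a small GTPase that restrains calcium channels, fell by 1.01. Without CBP-deleted replicate 2 or 3 or control replicate 1, 1 member passed in each direction.

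The upstream sequences of 4 of these genes are shown because they carry the letters CREB recognises and the genes fell together. They are the 200 bases before the annotated start, from RefSeq on GRCm38.p6, printed 5' to 3' on the gene's strand, with capitals at every TGACG on either strand (CGTCA when read on the printed strand). Dusp1 holds the full palindrome TGACGTCA at -143 and was taken by rule, while the other promoters printed here were chosen after values were seen. Dusp1 lies at chr17:26508473-26508672 on the minus strand, Fos at chr12:85473690-85473889 on the plus strand, Junb at chr8:84978749-84978948 on the minus strand and Id3 at chr4:136143622-136143821 on the plus strand.
Dusp1: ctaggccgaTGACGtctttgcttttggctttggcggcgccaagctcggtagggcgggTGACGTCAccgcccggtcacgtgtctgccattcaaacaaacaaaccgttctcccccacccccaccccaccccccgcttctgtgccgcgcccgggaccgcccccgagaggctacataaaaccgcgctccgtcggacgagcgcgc
Fos: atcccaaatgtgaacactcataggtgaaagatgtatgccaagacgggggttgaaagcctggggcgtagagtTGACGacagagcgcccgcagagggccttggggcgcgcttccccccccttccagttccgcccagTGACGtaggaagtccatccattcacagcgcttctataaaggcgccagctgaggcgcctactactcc
Junb: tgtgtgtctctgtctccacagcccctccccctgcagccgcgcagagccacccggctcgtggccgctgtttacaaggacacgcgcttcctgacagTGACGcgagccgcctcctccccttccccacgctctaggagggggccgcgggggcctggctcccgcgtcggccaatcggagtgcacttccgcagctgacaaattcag
Id3: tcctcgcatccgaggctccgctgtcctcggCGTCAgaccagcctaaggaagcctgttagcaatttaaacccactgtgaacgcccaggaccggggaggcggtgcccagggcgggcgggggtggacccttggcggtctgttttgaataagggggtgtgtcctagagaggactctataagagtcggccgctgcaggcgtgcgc
Overlapping matches make up the palindrome of Dusp1, which also has a separate TGACG at -191. Fos has a match at -129 and another at -66, Junb has 1 at -106 and Id3 has 1 at -170.

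Such letters were not more frequent among the genes that fell. A promoter entry was matched for 9887 of the 12393 genes, 213 that rose and 266 that fell. The palindrome was in 2.26% of all promoters, in 7 that belong to genes that rose (3.29%) and in 2 that belong to genes that fell (0.752%). Those 2 were Dusp1 and Tesk1, a kinase that acts on cofilin, and the genes that rose included Skp1, a subunit of ubiquitin ligases (0.63), and Gpm6b, a membrane proteolipid (0.56). The shorter TGACG was in 21.6% of all promoters, 25.8% of those that rose and 17.3% of those that fell. Other motifs, each searched on both strands, also differed in share. The AP-1 letters TGANTCA were in 4.49% of all, 1.88% of genes that rose and 6.02% of genes that fell. The ETS letters CCGGAAG were in 10.7%, 16.0% and 7.14%, the TATA letters TATAAA in 7.39%, 2.82% and 7.89%, and the NF-kappaB letters GGGANTTCC in 1.38%, 2.35% and 1.88%. The median GC content was 60.5% for genes that rose and 63.5% for genes that fell, against 60.0% for all. These matches describe letters in a window and show no binding.

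NF-kappaB genes were lower, while the TNF receptors around them moved both ways. Of 15 pathway members 5 fell and 0 rose, with 12 negative and a median of -0.19. They were Rela, the classical activating subunit (-0.44), Relb and Nfkb2, which form the dimer of the alternative pathway (-0.53 and -0.42), and the inhibitor family members Nfkbie and Bcl3 (-0.61 and -0.60). Relb read 8.15, 8.15 and 8.24 against 8.71, 8.66 and 8.76, and the groups did not overlap (SE 0.09, adjusted p = 0.00916). Among 14 adaptors of TNF receptors 3 fell and 0 rose. Traf1, which NF-kappaB induces and which modulates TNF receptor signals, read 8.15, 8.09 and 8.16 against 8.78, 8.72 and 8.81 (-0.64, SE 0.08, adjusted p = 0.0028). It was lower than in p300-deleted cells too, by 0.80 (adjusted p = 0.00108). The other adaptors that fell were Traf2 (-0.59) and Tnip1, an inhibitor of NF-kappaB signals (-0.46). The 16 receptors had 8 positive and 8 negative differences and a median of 0.01. Of them Tnfrsf1a, Tnfrsf1b and Tnfrsf25 fell by 0.61, 0.68 and 0.51, while Tnfrsf14 and Tnfrsf4 rose by 0.71 and 0.43. Tnfrsf1a and Tnfrsf1b are the receptors of TNF. The ligand Tnf read 7.43, 7.14 and 7.07 against 8.03, 7.93 and 7.90, with every CBP-deleted array under every control (-0.74, SE 0.12, adjusted p = 0.00898), and was 0.70 lower than in p300-deleted cells (adjusted p = 0.00706). Its neighbour on chromosome 17, Ltb, which codes for lymphotoxin beta, fell by 0.46 and was 0.52 lower than in p300-deleted cells (adjusted p = 0.00169). Tnfsf14, the ligand of the receptor coded by Tnfrsf14, fell from 7.52, 7.58 and 7.16 to 6.18, 6.17 and 6.36 (-1.18, SE 0.17, adjusted p = 0.00507). Its second probe set, dimmer, stood at 0.11. Without 1 of the CBP-deleted arrays, 0 to 1 pathway members passed.

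The genes of the Treg programme did not move as a block. Of 35 transcription factors 4 fell (Foxp3, Id3, Tbx21 and Id2) and 1, Ahr, rose, with a median of -0.06. Id3, an inhibitor of E proteins that helps keep Treg cells from becoming follicular, read 8.16, 7.87 and 7.92 against 9.08, 9.47 and 8.97 (-1.19, SE 0.14, adjusted p = 0.0026). It was lower than in p300-deleted cells by 0.64 (adjusted p = 0.0251). Its relative Id2 read 10.26, 10.45 and 10.76 against 11.24, 11.33 and 11.004, a difference of -0.70 (SE 0.16, adjusted p = 0.0334). Ahr, the aryl hydrocarbon receptor, read 8.90, 8.95 and 8.86 against 7.43, 7.47 and 8.18, with no overlap and with control replicate 3 nearest (1.21, SE 0.18, adjusted p = 0.00532), and was higher than in p300-deleted cells by 1.01 (adjusted p = 0.00734). Its second probe set, at background, was flat (-0.05). Among 35 surface and effector molecules 6 rose (Penk, Plagl1, Il10, Ctla4, Cd200 and Tnfrsf4) and 5 fell (Ecm1, Capg, Tnfrsf1b, Gpr83 and Tgfb1). Il10, an inhibitory cytokine, read 7.63, 7.26 and 7.51 against 6.35, 6.24 and 6.88 (0.98, SE 0.16, adjusted p = 0.00898), and Ctla4, an inhibitory receptor, read 11.34, 11.28 and 11.23 against 10.94, 10.46 and 10.79 (0.56, SE 0.11, adjusted p = 0.0165). Both groups of 3 were apart in each gene. Ecm1, a secreted matrix protein, read 7.50, 7.52 and 7.50 against 9.12, 8.95 and 8.58 (-1.38, SE 0.13, adjusted p = 0.000533). Capg, which caps actin filaments, read 9.53, 9.50 and 9.54 against 10.15, 10.17 and 10.29 (-0.68, SE 0.08, adjusted p = 0.00211). Both were lower than in p300-deleted cells as well, by 1.19 (adjusted p = 0.00122) and 0.69 (adjusted p = 0.00161). Tgfb1, an inhibitory cytokine of Treg cells, fell by 0.44.

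Of 46 T cell receptor and signalling genes 2 rose and 4 fell, with a median of -0.09, and 4 of these 6 were among the 12 receptor chains and coreceptors. Without 1 of the CBP-deleted arrays or control replicate 1, 1 or 2 passed. The 4 that fell were Cd5 and Cd6, neighbouring genes whose products dampen receptor signals (-0.32 and -0.38), the surface protein Thy1 (-0.58) and, among the signalling genes, Csk, the kinase that restrains Lck (-0.43). Cd5 was 0.46 lower than in p300-deleted cells (adjusted p = 0.00886). The adhesion receptor Cd2 rose by 0.40. Of 22 genes of naive and resting cells, Igfbp4, which captures insulin-like growth factors outside the cell, rose from 9.74, 9.69 and 9.86 to 11.12, 11.01 and 11.19 (1.34, SE 0.16, adjusted p = 0.0026), and Tob1, a factor of quiescence, fell from 8.59, 8.73 and 8.41 to 7.70, 7.58 and 7.85 (-0.87, SE 0.12, adjusted p = 0.00452). All 6 probe sets of Igfbp4 were higher, by 1.08 to 1.51.

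Genes of other T helper fates were measured in 41 cases, of which 5 rose and 4 fell. Of 13 Th1 genes 3 fell and 0 rose (median -0.49). Tbx21, the lineage factor of Th1 cells, read 7.23, 7.49 and 7.17 against 8.48, 8.70 and 8.12 (-1.14, SE 0.23, adjusted p = 0.021), Il12rb1, a receptor chain of the interleukin that drives Th1 cells, fell by 0.70 and Ccl5 by 0.58. Of 11 follicular helper genes 3 rose (Il21, Slamf6 and Cd200) and 1 fell, Cxcr5, the receptor that guides cells into follicles. Il21, a cytokine that acts on B cells, read 6.12, 6.17 and 6.31 against 4.71, 5.30 and 4.72 (1.29, SE 0.17, adjusted p = 0.00286). Cxcr5 read 6.67, 6.38 and 6.51 against 7.54, 7.79 and 7.07 (-0.95, SE 0.17, adjusted p = 0.0139). The 2 genes thus moved in opposite directions, each with no overlap between the groups. Cxcr5 was also 0.91 lower than in p300-deleted cells (adjusted p = 0.0101), while Il21 was 0.37 from them (adjusted p = 0.273). Ccr8, a chemokine receptor of Th2 and Treg cells, rose by 0.78. The JAK, STAT and SOCS genes had 0 of 25 past the threshold in limma and 11 at an unadjusted p under 0.05, with 18 negative and the median was -0.17. Of 37 cytokine receptors Il1r2, a decoy receptor that binds interleukin-1, rose from 6.76, 6.94 and 7.40 to 7.98, 7.997 and 8.13 (1.00, adjusted p = 0.00757).

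Of 41 genes of TGF-beta and BMP signalling 6 fell and 1 rose, and the median was -0.02. Sostdc1, which is secreted and blocks BMP and Wnt ligands, read 5.94, 5.41 and 5.38 against 4.04, 3.37 and 3.30 (adjusted p = 0.000886); since the control mean was at background, its difference of 2.01 is a lower bound. Both probe sets were higher, by 2.01 and 1.94. Genes that BMP signals induce, Id1 and Id3, fell by 0.55 and 1.19, and the ligand Bmp7 fell by 0.85. Of 35 Notch and Wnt genes 3 fell and 0 rose: Notch1 (-0.41), Notch3 and Axin2 (-0.62), a feedback inhibitor that Wnt signals induce. Notch3 was at background in both groups, at 3.26 to 3.35 against 3.72 to 3.76, so no fold is read from it. Notch1 was 0.52 lower than in p300-deleted cells (adjusted p = 0.0141).

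**Figure D4:**
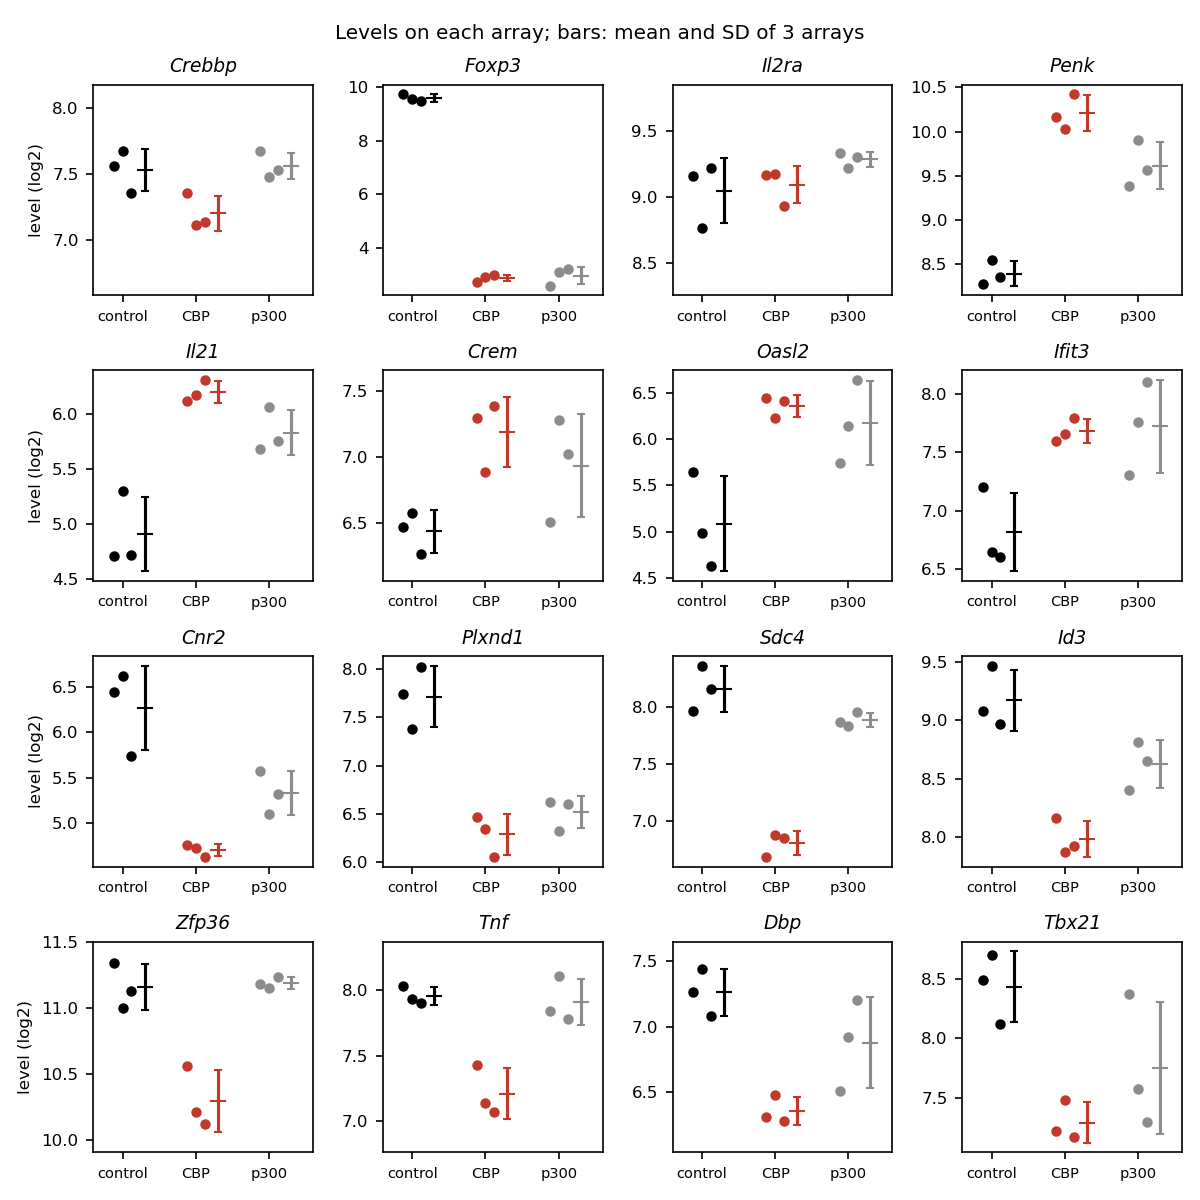
Levels (log2) of 16 genes are plotted by array, black for control, red for CBP-deleted (CBP) and grey for p300-deleted (p300) cells, with the mean and SD of 3 arrays beside each group; axes differ between genes and do not start at 0. Zfp36, Tnf and Sdc4 are low in the red points and near the control in the grey ones, whereas Foxp3, Plxnd1 and Ifit3 differ from the control in both.

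Genes of the type I interferon response, which block viral replication, were higher. Of 31 measured 5 rose and 0 fell, 30 were positive and the median was 0.38. Oasl2, an oligoadenylate synthetase-like protein, read 6.44, 6.23 and 6.41 against 5.64, 4.99 and 4.63 (1.27, SE 0.25, adjusted p = 0.0196). Ifit3, an antiviral protein with tetratricopeptide repeats, read 7.60, 7.66 and 7.79 against 7.20, 6.65 and 6.60 (0.86, SE 0.20, adjusted p = 0.0314), and its neighbour Ifit1 read 8.30, 8.23 and 8.54 against 7.82, 7.63 and 7.22 (0.80, SE 0.21, adjusted p = 0.05, just inside the threshold). In each the groups did not overlap and control replicate 1 was nearest to the CBP-deleted arrays. Oas2, an oligoadenylate synthetase, rose by 1.03 and Rtp4, a membrane transport protein, by 0.70. The factor Irf7, which drives the response, stood at 0.45 (adjusted p = 0.147). The same 5 genes stood 0.44 to 1.09 above the shared controls in p300-deleted cells, and 0 of the 5 differed between the deletions. Without any 1 of the CBP-deleted arrays 0 members passed, and without control replicate 1, 2 or 3 3, 4 and 4 did. The list median stayed between 0.25 and 0.43 when 1 of these arrays was left out. Of 10 GTPases that interferon gamma induces, Gbp2b fell from 6.18, 6.45 and 5.72 to 4.71, 4.77 and 4.57 (-1.43, SE 0.19, adjusted p = 0.00311).

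The promoters of both Ifit genes are shown because the pair rose together and holds repeats of the letters that interferon-activated factors bind. Ifit1 lies at chr19:34640689-34640888 and Ifit3 at chr19:34583329-34583528, both on the plus strand, 200 bases before the start (RefSeq, GRCm38.p6). Capitals mark GAAANNGAA on either strand, and neighbouring matches can overlap.
Ifit1: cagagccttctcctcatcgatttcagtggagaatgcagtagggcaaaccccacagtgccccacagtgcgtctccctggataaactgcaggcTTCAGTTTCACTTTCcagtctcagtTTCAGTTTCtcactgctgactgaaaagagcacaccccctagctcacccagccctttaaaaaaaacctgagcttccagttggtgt
Ifit3: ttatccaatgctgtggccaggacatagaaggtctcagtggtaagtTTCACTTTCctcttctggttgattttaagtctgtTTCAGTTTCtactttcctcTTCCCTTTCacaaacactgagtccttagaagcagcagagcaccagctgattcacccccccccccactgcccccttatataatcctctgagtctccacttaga
Ifit1 has 3 matches, between -109 and -84, and Ifit3 has 3, between -155 and -102. This pattern was in 4.89% of all promoters, in 8.45% of those of genes that rose and in 3.01% of those of genes that fell.

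Of 55 proteoglycan, matrix and protease genes 7 fell and 0 rose, with 40 negative and a median of -0.16. Without 1 of the CBP-deleted arrays or control replicate 1, 2 or 3 passed, and without control replicate 3 the median was -0.09. Of the 7, 4 belong to the 22 genes of proteoglycans and the enzymes that sulfate them. Sdc4, a transmembrane heparan sulfate proteoglycan that works with integrins, read 6.69, 6.88 and 6.85 against 7.96, 8.36 and 8.15 (-1.35, SE 0.11, adjusted p = 0.000265). Gpc1, a proteoglycan anchored by lipid, read 5.51, 5.88 and 5.83 against 7.27, 7.21 and 6.66 (-1.30, SE 0.22, adjusted p = 0.00945). Both genes had every CBP-deleted array more than 0.7 under the lowest control. Sulf2, which trims sulfate from heparan chains, fell by 0.91 and Chst15, which adds sulfate to chondroitin, by 0.57. Mmp9, a protease that degrades matrix, read 5.12, 4.82 and 5.42 against 6.65, 6.67 and 6.38 (-1.45, SE 0.30, adjusted p = 0.0207). Sdc4, Sulf2 and Mmp9 were also lower than in p300-deleted cells, by 1.08 (adjusted p = 0.00108), 0.90 (adjusted p = 0.031) and 1.15 (adjusted p = 0.0435). Adamtsl4, the measured gene next to Ecm1 on chromosome 3, fell by 0.61 beside it.

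Of 27 axon guidance genes, which T cells use as contact and migration signals, 3 fell and 0 rose. Plxnd1, a semaphorin receptor, read 6.47, 6.35 and 6.06 against 7.74, 7.38 and 8.02 (-1.42, SE 0.17, adjusted p = 0.00211), and the semaphorins Sema4a and Sema4d fell by 0.75 and 0.44. Plxnd1 was nearly as low in p300-deleted cells (-1.20), and the difference between the deletions was -0.23 (adjusted p = 0.525). Of 23 chemokine and homing receptors 18 were negative, 4 fell and 1 rose. The 4 were Cxcr5, Cd44, which binds hyaluronan and marks activated cells (-0.73), Selplg, the ligand of selectins (-0.33), and the prostaglandin receptor Ptger4 (-0.34). Of 35 integrins and adhesion molecules the ligands Icam1 and Icam2, the integrin chain Itga6 and the tetraspanin Cd82 fell by 0.44 to 0.63, while the tetraspanin Cd81 rose by 0.30.

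Receptors and channels of second messenger pathways also fell. Of 39 receptors for lipids, purines and neurotransmitters 5 fell and 0 rose. Cnr2, the cannabinoid receptor of immune cells, read 4.76, 4.73 and 4.63 against 6.45, 6.62 and 5.75 (-1.57, SE 0.20, adjusted p = 0.00286), and the groups were well apart. Ffar2, a receptor of short-chain fatty acids, fell by 0.81, the prostacyclin receptor Ptgir by 0.56, Gpr83, an orphan receptor of Treg cells, by 0.54 and Ptger4 by 0.34. Gpr83 was the only one of the 5 that differed from p300-deleted cells, by -0.87 (adjusted p = 0.00273). Of 33 G protein genes Rgs14, which shortens G protein signals, read 9.23, 9.18 and 9.23 against 10.10, 10.07 and 9.65 (-0.72, SE 0.11, adjusted p = 0.00757), and Gna11 and the arrestin Arrb2 fell by 0.41 and 0.32. Of 38 cyclic nucleotide enzymes 4 fell and 2 rose. Pde2a, a phosphodiesterase, read 7.52, 7.40 and 7.29 against 9.07, 8.86 and 8.16 (-1.30, SE 0.19, adjusted p = 0.00594), and the adenylyl cyclases Adcy6 and Adcy7, which make cyclic AMP, fell by 0.46 and 0.49. Gucy1b1, part of the guanylate cyclase that senses nitric oxide, read 5.16, 4.92 and 4.96 against 3.43, 3.83 and 3.59, at background, so its 1.40 is a lower bound (adjusted p = 0.00468). It was 1.35 above p300-deleted cells (adjusted p = 0.00329). Of 45 ion channel and calcium genes 7 fell and 0 rose (median -0.15), among them Aqp9, a water and glycerol channel (-1.27), the inositol trisphosphate receptors Itpr2 and Itpr3, which release stored calcium (-0.53 and -0.49), the calcium-dependent kinase Camk2g (-0.63) and the calcium-binding S100a4 (-0.54). Without 1 of the CBP-deleted arrays 0 to 2 of the calcium genes passed. Rrad, a GTPase of the same family as Gem, was not in a list and read 7.25, 7.10 and 7.05 against 8.46, 8.47 and 8.07 (-1.20, SE 0.16, adjusted p = 0.00286).

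Metabolic genes moved in both directions. Of 42 glycolysis and HIF genes 2 rose and 4 fell. Slc2a3, a high-affinity glucose transporter, read 9.76, 9.72 and 9.71 against 10.85, 10.65 and 10.63 (-0.98, SE 0.09, adjusted p = 0.000502), and a second bright probe set fell by 1.03. Eno3, an enolase, fell by 0.78, and the hypoxia-induced Adm and Ndrg1 by 0.84 and 0.62. Hk2, which traps glucose in the cell, and Tpi1, an enzyme midway along glycolysis, rose by 0.41 and 0.35. Tpi1 read 9.95, 10.01 and 10.04 against 9.57, 9.67 and 9.71, and was 0.85 above p300-deleted cells (adjusted p = 0.00108), where it stood at -0.50 from the control. Of 28 cholesterol genes Srebf2, the master regulator of the pathway, and Hmgcs1, an early enzyme, fell by 0.44 and 0.45, and Sc5d, a late enzyme, rose by 0.55. Of 43 lipid genes the fat-burning enzymes Echs1 and Acadl and the activating enzyme Acsl5 rose (0.65, 0.33 and 0.29), and Mgll, which breaks down monoglycerides and the endocannabinoid that Cnr2 senses, fell by 0.69. Psat1, an enzyme of serine synthesis, read 8.99, 8.94 and 8.95 against 8.09, 7.90 and 8.67 (0.74, adjusted p = 0.024) and was 0.95 above p300-deleted cells (adjusted p = 0.00519).

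Genes of the mitochondrion were slightly higher as groups, with few members past the threshold. Of 72 oxidative phosphorylation genes 60 were positive, 3 rose and 0 fell, with a median of 0.14. By complex, 28 of 33 members of complex I, 6 of 9 of complex III, 11 of 11 of complex IV and 12 of 15 of complex V were positive. Ndufc1 and Ndufc2 of complex I and Uqcrc2 of complex III rose by 0.43, 0.39 and 0.39. Of 74 mitochondrial ribosomal proteins 65 were positive, 3 rose and 0 fell (median 0.15), with Mrpl1 at 6.80, 6.86 and 7.10 against 5.28, 6.19 and 6.37. Of 46 citric acid cycle and import genes Suclg2, Idh3a and the chaperonin Hspe1 rose (0.70, 0.50 and 0.46). These counts depend on the controls: 20 of the oxidative phosphorylation genes and 23 of the ribosomal proteins rose without control replicate 2, and 0 of each without control replicate 1 or any 1 of the CBP-deleted arrays. By contrast 0 of 42 cytosolic ribosomal proteins passed in limma (median 0.01), with 4 at an unadjusted p under 0.05.

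Proteasome genes were higher too. Of 35 subunits 29 were positive, 5 rose and 0 fell (median 0.17), and 4 of the 5 belong to the 15 subunits of the 20S core that cuts proteins. Psma4 read 11.02, 10.99 and 10.97 against 10.29, 10.30 and 10.75 (0.54, SE 0.11, adjusted p = 0.0203), Psma6 rose by 0.51, Psma5 by 0.45, Psmb7 by 0.40 and the lid subunit Psmd12 by 0.35. Of 38 genes of protein folding in the endoplasmic reticulum Pdia3, an oxidoreductase that also loads class I molecules, Ssr3, part of the translocon, and Ppib, a prolyl isomerase, rose (0.85, 0.74 and 0.31). Pdia3 read 11.20, 10.96 and 11.07 against 10.20, 9.65 and 10.82, so the controls spread widely. Without any 1 of the CBP-deleted arrays or control replicate 1, 0 proteasome and 0 folding genes passed.

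DNA replication genes were higher: of 49 measured 42 were positive, 5 rose and 0 fell (median 0.19). Prim1, the primase that starts each new strand, read 8.91, 8.87 and 9.06 against 8.05, 8.16 and 8.58 (0.68, SE 0.14, adjusted p = 0.0234). Rfc3, a subunit of the clamp loader, rose by 0.69, and the origin recognition subunits Orc2 and Orc3 by 0.52 and 0.34. E2f1, the factor that drives entry into S phase, rose by 0.52. The second probe set of Orc2, nearly as bright, was at 0.11 and the third at -0.12, while the other probe sets of Prim1, Rfc3, Orc3 and E2f1 were positive. Prim1 and E2f1 were above p300-deleted cells by 1.00 (adjusted p = 0.00295) and 0.76 (adjusted p = 0.00488). Of 49 mitosis genes 44 were positive with a median of 0.29, but 1 passed, Kif18a, a kinesin of the spindle (0.51). The controls were far apart here. Cdk1, the kinase of mitotic entry, read 8.20, 8.46 and 8.42 against 7.53, 7.21 and 8.50, so control replicate 3 overlapped the CBP-deleted arrays (adjusted p = 0.209). Without any 1 of the CBP-deleted arrays or control replicate 1, 0 replication genes passed, without control replicate 3 11 did, and the median ran from 0.10 to 0.30. Without control replicate 3 19 mitosis genes rose and the median was 0.55, whereas without control replicate 2 0 rose and the median was 0.08. Without any 1 of the CBP-deleted arrays or control replicate 1, 0 mitosis genes passed as well. In p300-deleted cells the medians against the shared controls were -0.84 for mitosis and -0.47 for replication genes.

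**Figure D5:**
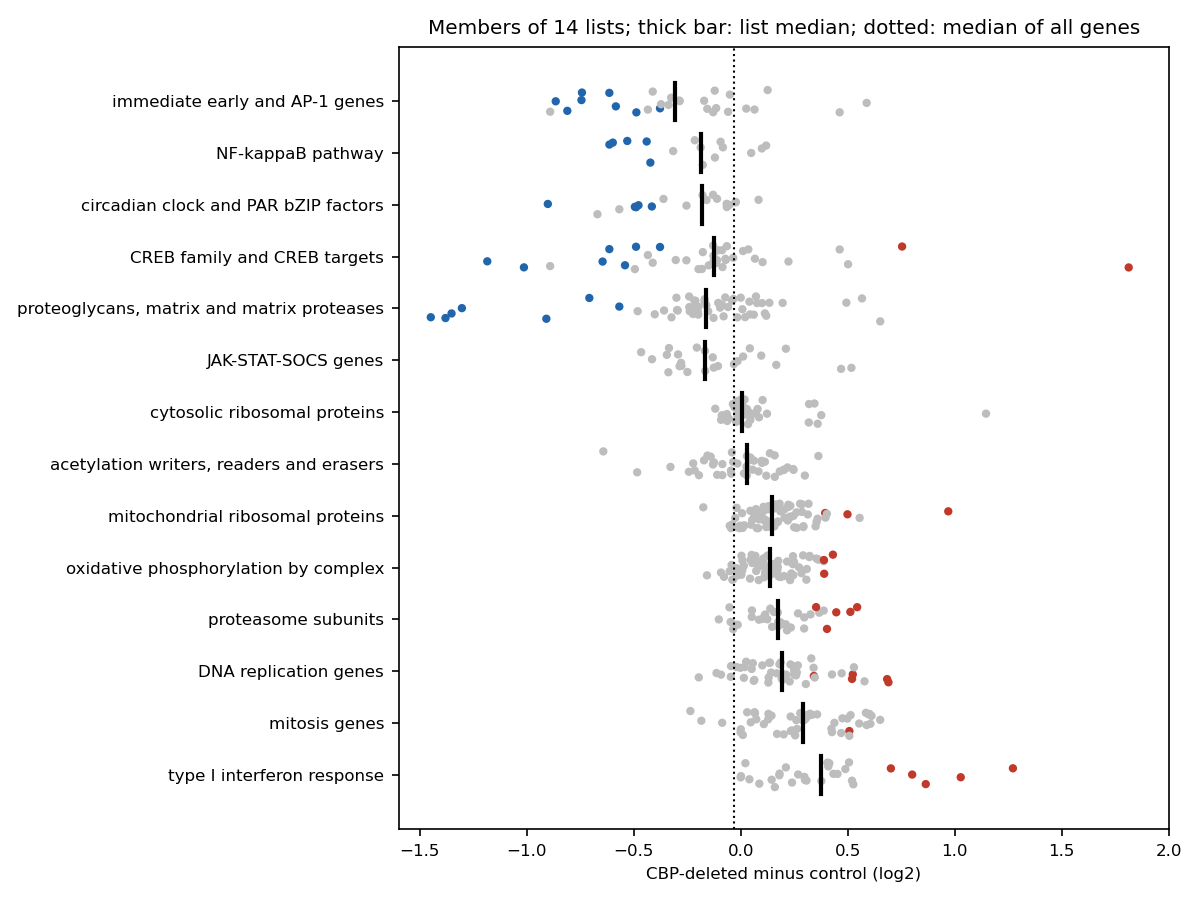
Each point is a measured member of 1 of 14 lists, placed by CBP-deleted minus control (log2), red where it rose, blue where it fell and grey where it did not pass; thick bars are list medians and the dotted line is the median of all genes, -0.03. Immediate early (-0.31) and NF-kappaB genes (-0.19) lie mostly left of the line, and mitosis (0.29) and interferon genes (0.38) mostly right.

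Acetylation and splicing genes had 0 calls, while other nuclear lists had some. Of 44 writers, readers and erasers of acetylation 0 passed in limma and 8 reached an unadjusted p under 0.05, with a median of 0.03; the largest differences were Brd2, a reader of acetylated histones (-0.64, adjusted p = 0.0936), and the deacetylase Hdac5 (-0.48, adjusted p = 0.0837). Of 49 splicing factors 0 passed in limma and 7 reached an unadjusted p under 0.05 (median 0.02). Of 53 genes of RNA polymerase II and Mediator, the bridge between enhancer-bound factors and the polymerase, 4 rose and 0 fell: Med14, the backbone of Mediator, Med7, and the general factors Gtf2f2 and Gtf2e2. Med14 read 5.90, 5.96 and 5.86 against 5.20, 5.30 and 5.28 (0.65, SE 0.11, adjusted p = 0.0101), with no overlap, and was 0.51 above p300-deleted cells (adjusted p = 0.0182). Of 45 proteins known to bind CBP, 6 fell (Foxp3, Rara, Rela, Notch1, Fos and Tcf3) and Crem and E2f1 rose.

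Clock genes were lower. Of 19 clock and PAR bZIP genes 18 were negative, 5 fell and 0 rose (median -0.18). Dbp, an output factor of the clock, read 6.31, 6.48 and 6.28 against 7.27, 7.44 and 7.08 (-0.90, SE 0.16, adjusted p = 0.0135), and both of its probe sets fell alike. Nr1d2, a repressor in the clock loop, read 8.34, 8.36 and 8.31 against 8.88, 8.92 and 8.69 (-0.50, SE 0.09, adjusted p = 0.0126) and was 0.57 lower than in p300-deleted cells (adjusted p = 0.00407). Per2, at background in CBP-deleted cells, fell by at least 0.49, Per3 by 0.48 and Tef by 0.42, while the activator Arntl was level (6.98 against 7.04) and Nr1d1 stood at -0.67 (adjusted p = 0.161). The time of day at which cells were taken is not in the labels. Without 1 of the CBP-deleted arrays 0 or 1 of these genes passed. Of 24 nuclear receptors 22 were negative and 3 fell: Thra, the thyroid hormone receptor alpha, Rara, the retinoic acid receptor alpha, and Nr2f6 (-0.69, -0.55 and -0.57). Among 26 p53 genes Sesn1, an inhibitor of mTORC1, read 9.16, 9.24 and 9.09 against 10.04, 9.92 and 9.64 (-0.70, SE 0.12, adjusted p = 0.0103) and Plk3 fell by 0.62, while Cdkn1a, the classical target, was at 6.13 against 6.26. Of the BCL2 family 0 of 16 passed in limma and 7 reached an unadjusted p under 0.05.

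Several of the furthest genes belonged to no list. Ckb, the brain-type creatine kinase, read 6.88, 6.85 and 6.89 against 8.37, 8.55 and 7.84 (-1.38, SE 0.23, adjusted p = 0.0101). Apobec2, a deaminase family member, read 3.997, 4.16 and 4.23 against 5.40, 5.27 and 5.34 (-1.21, SE 0.12, adjusted p = 0.000886), and Cst7, a cysteine protease inhibitor of cytotoxic cells, read 8.33, 8.45 and 8.56 against 9.58, 9.58 and 9.31 (-1.04, SE 0.11, adjusted p = 0.000886). Both were even within each group and lower than in p300-deleted cells, by 1.19 (adjusted p = 0.00108) and 0.93 (adjusted p = 0.00161). Mapk12, a p38 kinase, fell by 1.18, the phosphatases Ptpn5 and Ptprv by 1.10 and 1.00, and Hbegf, a growth factor, by 0.93. Among genes that rose, Cpq, a carboxypeptidase, read 6.29, 6.26 and 6.61 against 4.74, 5.53 and 4.43 (1.49, SE 0.24, adjusted p = 0.00847), and Dynlt3, a dynein light chain, read 8.94, 8.87 and 8.94 against 8.10, 8.02 and 8.11 (0.84, SE 0.10, adjusted p = 0.0026). Dynlt3 had 3 probe sets, all higher, whereas the second of Cpq, at background, was at -0.20. Apobec3, a deaminase that restricts retroviruses, rose by 1.14 (adjusted p = 0.0328) and stood 2.49 above p300-deleted cells (adjusted p = 0.00108), in which it was 1.34 under the controls. The noncoding transcript Gt(ROSA)26Sor, of the locus widely used for knock-in alleles, read 7.01, 6.92 and 7.37 against 5.73, 6.20 and 5.82 (1.18, SE 0.16, adjusted p = 0.00373); the genotype labels name no allele there.

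Changed genes that lay side by side were listed in the RefSeq gene order. There were 32 runs of neighbours that changed in the same direction, 8 higher and 24 lower, with 67 genes in all and at most 3 in a run. How many runs this many calls would give among unrelated genes was not worked out, so these counts only describe. They include genes with overlapping spans, such as Tesk1 and Cd72, and Ighm, whose direction depended on the probe set. The runs of 3 were Tjp3, Pip5k1c and Tbxa2r on chromosome 10, Vps37c, Cd5 and Cd6 on chromosome 19, and Tesk1, Cd72 and Sit1 on chromosome 4. In the last, Cd72, a B cell coreceptor, read 7.24, 7.11 and 7.43 against 8.64, 8.54 and 8.21 (-1.21, SE 0.13, adjusted p = 0.00111), Sit1, an adaptor of lymphocytes, fell by 0.83 and Tesk1 by 0.68. Casp1 and Casp4, the inflammatory caspases on chromosome 9, rose by 0.62 and 0.78, and the receptor genes Klra17 and Klra5 on chromosome 6 fell with their lower group at background. Ccdc22, whose annotated span overlaps the end of Foxp3 on the X chromosome, read 6.65, 6.54 and 6.63 against 7.02, 7.25 and 6.95 (-0.47, SE 0.11, adjusted p = 0.0364), with -0.49 in p300-deleted cells. Around Crebbp itself, 66 genes were measured within 10 Mb, of which 2 rose and 0 fell. Leaving out chromosome Y, with 8 genes and 0 calls in limma, the share that fell ran by chromosome from 0.242% of genes on chromosome 16, which carries Crebbp, to 5.25% on chromosome 15.

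A second reading was available for 250 of the changed genes through 401 other probe sets. Of these 328 had the same sign (81.8%), 56 passed by themselves and 1 passed in the opposite direction. Of the 264 with a mean of at least 5, 235 had the same sign (89.0%).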

How the data were processed

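The study hybridised 9 Affymetrix 3' arrays, 3 per group, and the groups were taken from the titles and genotype labels. The deposited values are log2 levels per probe set, summarised by the authors with RMA per the submitters' processing notes (version not given in the sources used here). They were used as deposited, with 64 control probe sets left out and 0 columns of other samples. Array medians lay between 5.49 and 5.59. Arrays have no read depth, and their number limits the precision.

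Gene names came from the platform annotation, and RefSeq (GRCm38.p6) gave gene order and promoters. Tests used limma 3.58.1 (R 4.3.3) with all 9 arrays in the fit, leaving 6 residual degrees of freedom, a trend on mean level and no covariate. They were two-sided, with Benjamini-Hochberg adjustment over all 12393 genes at 0.05. The code was tested on simulated data. An exact permutation test of 3 against 3 arrays cannot go below p = 0.1 and was not used. Values after the word against are the controls, in replicate order 1, 2 and 3, which was not used as a pairing.

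The members and the 67 gene lists, 12 of them of other cell types, were chosen with earlier results of these data known, and no list was tested. Named were Crebbp, Foxp3 and Il2ra, up to 6 changed members per list (or up to 2 unchanged ones), the 40 highest and 40 lowest changed genes, changed neighbours, and promoters of changed members with a full CRE. The following fall outside that rule and were picked with their values in view: Arntl, Cd200, Cdkn1a, Chst15, Creb1, Ctla4, Egr1, Fos, Fosb, Gpm6b, Ier2, Irf7, Jun, Nr1d1, Nr4a1, Skp1, Slamf6, Tcf3, Tnfrsf18, Tnfrsf4 and Tnip1. The result of 1 list is not reported here. Replicate numbers were checked for pairing. Deviations of same-numbered arrays correlated at 0.27, -0.06 and 0.03, and those of differently numbered arrays at -0.19 to 0.12. Deviations from means of 3 arrays are too constrained to settle pairing. The labels call the samples independent, and no pairing was used in the main fit. Alternatives covered the probe set choice, filters, scaling, the fit, the covariates and each array left out.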

Additional observations from a re-analysis of the deposited data

Results flagged for a closer look

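Of 2246 probe sets that carry several gene symbols or none, and so entered no gene comparison, 53 passed the threshold when all 22626 probe sets were tested on their own (limma, adjusted p under 0.05), 29 higher and 24 lower. They were looked at because they hold signal outside the genes compared. The strongest differences among them were -3.90, -3.70, -3.67 and -3.25 on the log2 scale, with CBP-deleted replicate 1 nearest to the controls in each, and the highest were 2.67 and 1.93. They are not named here.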

How the results depend on the processing

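Against 611 changed genes (265 higher, 346 lower), the fit of only the 6 CBP-deleted and control arrays called 261 (100 and 161), an ordinary linear model 124 (46 and 78), the 18S level as a covariate 364 (162 and 202) and the S100a8 and S100a9 level as a covariate 54 (13 and 41). An adjusted threshold of 0.01 gave 80 (29 and 51) and one of 0.1 gave 1126 (501 and 625). The fit with the replicate block, on numbers that the labels do not call pairs, called 364 (156 and 208). With 1 array left out the total ran from 85 to 1131, the higher from 28 to 520 and the lower from 57 to 640. The 130 genes called without control replicate 1 shared 123 with the 611, against 496 of 893 without control replicate 2 and 551 of 1131 without control replicate 3. The cause was not tested. Counts stayed within 1.5 times under the other probe set choices, the filter on dim genes, both scalings and the fit without a trend, at 469 to 679. Of 261 named genes that passed, 18 passed under every alternative that tested them, among them Penk, Id3, Ecm1, Capg, Traf1, Sdc4, Plxnd1 and Cst7. Signs turned in few cases. Without probe sets of shared sequence Slc2a3 was at 0.023 and Snx6 at -0.088, both read through another probe set. With the S100a8 and S100a9 covariate Slfn4 was at -0.40 and S100a9 at -0.016, and with the mean of its probe sets Ighm was at 1.01. With 1 array left out Il2ra ran from -0.10 to 0.13, Mt1 from -0.83 to 0.050 and Slfn4 from -0.13 to 0.97. Signal limits the dimmest genes, of which 0.444% were called in the lowest quintile by level.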
